A study of Mus musculus with 8 samples.

Results

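Actin-binding proteins hold, cut, cap, link or pull on actin filaments, and their genes were followed in cultured mouse group 2 innate lymphoid cells (ILC2s) given an inhibitor of leukotriene A4 hydrolase. The genes were chosen by annotation and by count. A gene was kept when the gene ontology cell of the deposited table listed the exact term actin binding and when at least 10 counts were present in 4 or more of the 8 libraries. Integrin symbols and Anln were left out. Of 25367 genes in the table, 279 carried the term, 278 remained without Anln, and 67 of these were under the count threshold, 10 of them with a count of 0 in every library. The remaining 211 genes are described here, beside 15322 genes of the whole table that pass the same count threshold. For 6741 rows no readable term was at hand, so well-known actin binders such as Pfn1, Cfl1, Coro1a, Myh9 and Flna are not among the 211.

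The cells were ILC2s sorted from the large intestine of wild-type C57BL/6 mice and labelled as colon tissue. Their culture lasted 5 days in complete IMDM medium that held 10 ng/mL each of the cytokines IL-33, IL-25, IL-7 and IL-2, and they were then kept for 16 hours either with vehicle, labelled Control, or with SC-57461A, which blocks the enzyme that makes leukotriene B4. Total RNA of 4 vehicle and 4 SC-57461A libraries was sequenced, so every library came from cells that had been expanded with the same cytokines. No dose of SC-57461A and no record of separate animals or cultures was found in the labels, so a p-value here weighs a difference against the scatter of the libraries alone, and that scatter may be technical.

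Actin exists as single molecules and as filaments, and a cell moves, adheres and divides by changing the balance between them. Profilin, thymosin and cyclase-associated proteins hold or recharge single actin molecules. Formins, Ena/VASP proteins and the Arp2/3 complex start or extend filaments, whereas gelsolin relatives, cofilin relatives, coronins and capping proteins cut, cap or recycle them. Crosslinkers such as spectrins and filamins tie filaments into bundles or nets, talin couples them to integrins, and myosins move along them. In lymphocytes these proteins serve migration, adhesion and the contact with other cells.

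The libraries held 47376196 to 71155654 counts each. They fell into 2 groups of 4 by their summed FPKM (fragments per kilobase of gene, scaled to library total), called set A and set B here, and each set held 2 libraries of each treatment. Vehicle replicates 1 and 2 stood in set A together with replicates 2 and 3 of SC-57461A. Set B took vehicle replicates 3 and 4 with replicates 1 and 4 of SC-57461A. Transcripts under 1 kb took 10.9% to 13.1% of the counts in set A and 5.78% to 7.14% in set B. The labels name no batch that matches the sets. Levels of single genes across libraries are given as CPM, which are counts scaled to the size of the library with TMM factors. All 13 ILC2 markers, among them Gata3, Il1rl1 and Il13, were detected. They summed to 16520 to 19000 CPM in vehicle and 18850 to 19750 CPM with SC-57461A, both scaled to the library total. Within set A the sums were 18440 to 19000 and 19670 to 19750 CPM, and within set B 16520 to 17220 and 18850 to 19180 CPM. In the set-adjusted fit below, Id2, Il5 and Il2ra were higher and Gata3 was lower (adjusted p from 0.0184 to 0.0498, edgeR). In that fit 2.83% of all genes were higher and 2.5% lower. The 8 B cell markers summed to 18.2 to 20.9 CPM in vehicle and 37.2 to 39.4 CPM with SC-57461A, with Ighm at 3.67 ± 0.54 and 22.3 ± 1.39 CPM (SD, n = 4 each), and its part in the results below was not tested. The sums of 10 T cell markers (44.7 to 73.9 and 45.3 to 88.9 CPM) and of 8 endothelial markers (81.9 to 89.7 and 77.4 to 85.2 CPM) overlapped between the treatments. Both sums also overlapped within set B. Within set A neither did, with 69.7 to 73.9 and 75.4 to 88.9 CPM for T cells and 82.0 to 86.4 and 77.4 to 79.15 CPM for endothelium. Most of the endothelial sum was Pecam1, with 2976 to 6066 counts per library, where Cdh5 had at most 175. The endothelial markers Cdh5, Kdr, Tek, Cldn5 and Vwf were detected in set A and at 0 in set B.

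The 211 genes together took 2.77%, 2.73%, 2.65% and 2.67% of the counts in vehicle replicates 1 to 4, and 2.41%, 2.45%, 2.52% and 2.41% in SC-57461A replicates 1 to 4. Every SC-57461A library was thus below every vehicle library. Tmsb4x alone, the gene of thymosin beta 4, took 0.332% to 0.746% of the counts of a library, and without it the shares were 2.04% to 2.34% in vehicle and 1.77% to 2.07% with SC-57461A, which overlap. Of the 211 genes, 177 had at least 10 counts in all 8 libraries and 34 in 4 to 7. Of all 211, 199 are protein-coding, and 12 are pseudogenes, antisense genes or rows without a symbol whose reads may be shared with other genes.

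Tmsb4x was far above all other members, and the 10 most abundant included monomer binders, capping proteins, a tropomyosin and an Arp2/3 subunit. Per kilobase, 16 members reached a mean of 100 FPKM or more in vehicle, 95 reached at least 5 and 72 were under 1. Tmsb4x, which holds actin monomers in reserve, was listed at 4677, 4322, 2764 and 2184 FPKM in vehicle replicates 1 to 4 and at 2168, 3679, 4795 and 2504 FPKM in SC-57461A replicates 1 to 4. The high values were those of set A in both treatments. Its level in set B was 1.01 lower than in set A on the log2 scale.

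Cotl1, a coactosin-like protein of the cofilin homology family, came next with 374 ± 71.5 FPKM in vehicle (SD, n = 4) and 329 ± 77.3 FPKM with SC-57461A (SD, n = 4). Below it in vehicle stood the capping protein gene Capg with 256 ± 29.2 FPKM, Cap1, whose product recharges actin monomers, with 252 ± 19.8 FPKM, and the tropomyosin gene Tpm4 with 239 ± 20.8 FPKM (SD, n = 4). The vehicle libraries of Cotl1 all lay above those of Capg. The calponin gene Cnn2 followed with 193 ± 28.5 FPKM, the Arp2/3 subunit gene Arpc3 with 186 ± 16.4 FPKM and Fxyd5, which encodes a regulator of the sodium pump, with 180 ± 42.2 FPKM (SD, n = 4). Capzb, which caps the growing filament end, and the myosin gene Myo6 closed the first 10 with 157 ± 2.95 and 152.5 ± 8.6 FPKM (SD, n = 4). From Capg to Myo6, each neighbouring pair in this order had overlapping FPKM ranges in vehicle. None of these 10 members passed the threshold for a treatment difference in either fit below. Their set-adjusted log2 differences ran from -0.17 for Cnn2, with an adjusted p of 0.162, to -0.02 for Fxyd5, with an adjusted p of 0.920 (edgeR).

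**Figure D1:**
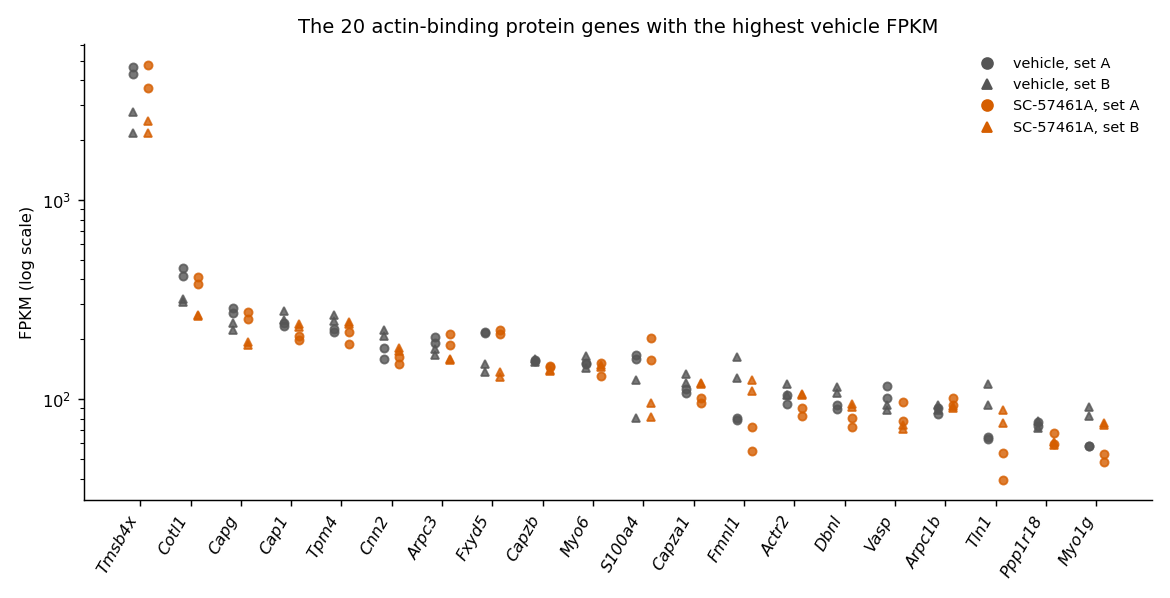
FPKM on a log axis of the 20 members with the highest vehicle mean, 1 point per library, grey for vehicle and orange for SC-57461A, circles for set A and triangles for set B. Tmsb4x stands at 2168 to 4795 FPKM with its set A libraries on top in both treatments, and no library of another member is above 454.3 FPKM.

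The first question was whether SC-57461A changed these genes when all 8 libraries were compared without regard to set. The edgeR quasi-likelihood test was fitted to all 15095 genes that passed its count filter, with Benjamini-Hochberg adjustment over all of them, and 204 of the 211 members were among them. No member passed the adjusted threshold of 0.05 in either direction, where 0.272% of all genes were higher and 0.0596% lower. At an unadjusted p under 0.05, 16 members were lower (7.84%, against 3.25% of all genes) and 2 were higher (0.98%, against 3.43%). DESeq2 called 3 members lower (Avil, Crocc and Palld, where 0.558% of all its genes were lower) and none higher (0.838% of all), and limma on log2(FPKM + 1) called none in either direction, where 0.31% of all genes were higher and 0.0638% lower (0.102% and 0.017% without a filter on low FPKM).

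Most members nevertheless had lower estimates with SC-57461A. In the pooled fit 138 of 204 members had a log2 fold change below 0 (67.6%, against 48.4% of all genes), with a median of -0.11 where that of all genes was 0.01. All 4 SC-57461A libraries lay below all 4 vehicle libraries for 12 members (5.88%, against 3.13% of all genes). The reverse order was seen for 2 members, Cnn3 and Dstn (0.98%, against 3.01%).

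With library set as a term in the model, 21 members fell and none rose. The share that fell was 10.3% of the 204 tested members, against 2.5% of all genes, and 2.83% of all genes rose. They were led by Palld, Myo16, Avil and Lsp1, and the fitted change ran from -47.6% for Palld to -14.8% for Dbnl. These 21 were chosen by a fit to the same libraries, so their order within each set is a description. For all 21 the SC-57461A libraries lay below the vehicle libraries within set A and again within set B, each with 2 libraries against 2. That order held for 44 of the 204 members (21.6%, against 10.3% of all genes), and the reverse for 6 (2.94%, against 9.63%). The count of 21 rested on single libraries, and the count over all genes moved with it. Without vehicle replicate 1, 2, 3 or 4, 9, 6, 25 and 7 members fell, in that order (4.27%, 2.91%, 12% and 3.37% of those tested, against 0.951%, 0.723%, 3.16% and 0.76% of all genes). Without SC-57461A replicate 1, 2, 3 or 4 the counts were 10, 23, 12 and 4 (4.74%, 11.1%, 5.83% and 1.91%, against 1.01%, 3.11%, 1.56% and 0.572%). Palld, Myo16, Avil and Lsp1 passed in all 8 of these fits. At an unadjusted p under 0.05, 57 members were lower (27.9%, against 11.2%) and 4 higher (1.96%, against 11.2%), DESeq2 with the set term called 34 lower (6.76% of all its genes) and 2 higher (5.18%), and limma on log2(FPKM + 1) called 19 of 137 lower (13.9%, against 3.96%) and none higher (3.2% of all genes). Without a filter on low FPKM, limma called 3 of 211 lower (1.42%, against 0.449%) and none higher (0.577% of all genes). The sets were read from the data, and the tally of calls without the set term was 0.

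**Figure D2:**
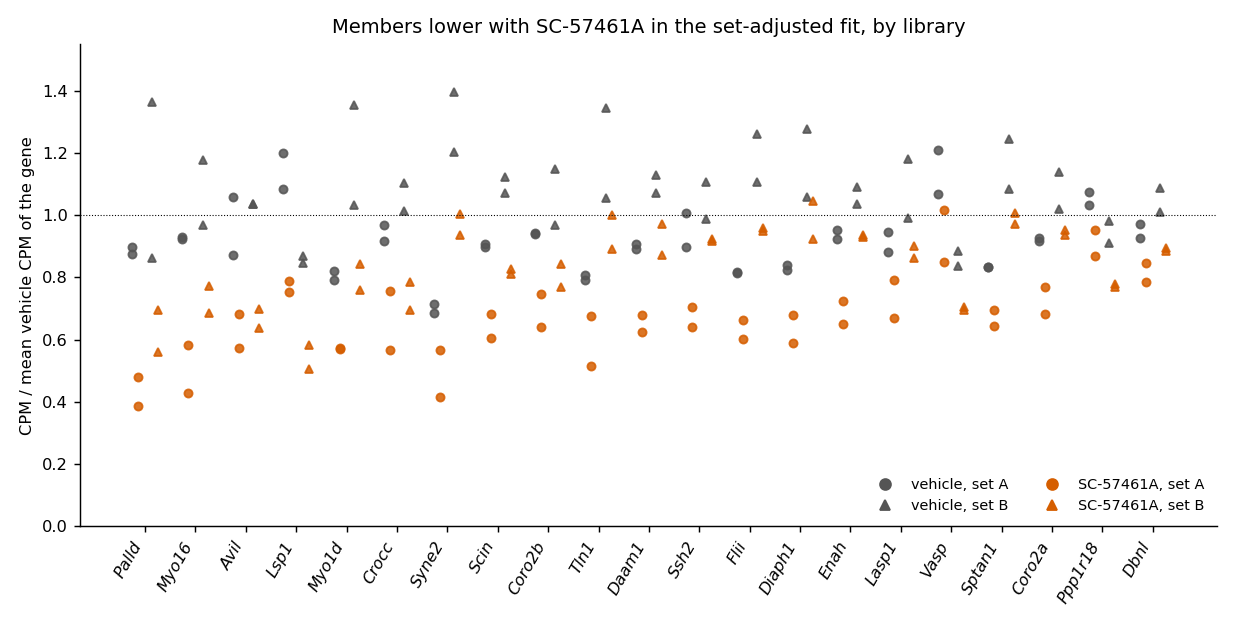
CPM of each of the 21 members that fell in the set-adjusted fit, divided by the mean vehicle CPM of that gene, 1 point per library, grey for vehicle and orange for SC-57461A, circles for set A and triangles for set B. Within each set every orange point lies under the grey points of the same shape, while 8 of the 21 also show no overlap between the treatments across all libraries.

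The proximal promoters of 3 members that fell are shown, since these have a single start site in RefSeq (GRCm38.p6) that is also the start of the gene in the deposited table, and small p-values. Each runs 5′ to 3′ on the strand of the gene from 250 bases before the start to 50 after it, with CCAAT and GGGCGG, or their reverse complements ATTGG and CCGCCC, in capitals. The Avil promoter is chr10:127000459-127000758 on the plus strand, that of Coro2b is chr9:62536995-62537294 on the minus strand and that of Flii is chr11:60727214-60727513 on the minus strand.
Avil: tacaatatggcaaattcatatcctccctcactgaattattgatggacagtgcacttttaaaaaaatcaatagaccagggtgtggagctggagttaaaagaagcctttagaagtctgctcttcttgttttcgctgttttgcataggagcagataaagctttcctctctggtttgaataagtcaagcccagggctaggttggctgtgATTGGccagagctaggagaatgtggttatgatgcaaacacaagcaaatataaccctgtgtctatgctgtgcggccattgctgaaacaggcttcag
Coro2b: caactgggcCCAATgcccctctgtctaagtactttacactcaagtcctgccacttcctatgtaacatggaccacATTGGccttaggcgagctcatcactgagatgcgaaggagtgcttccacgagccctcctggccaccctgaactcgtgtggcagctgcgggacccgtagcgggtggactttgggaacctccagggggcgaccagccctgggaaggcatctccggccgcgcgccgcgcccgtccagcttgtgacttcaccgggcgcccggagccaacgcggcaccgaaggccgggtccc
Flii: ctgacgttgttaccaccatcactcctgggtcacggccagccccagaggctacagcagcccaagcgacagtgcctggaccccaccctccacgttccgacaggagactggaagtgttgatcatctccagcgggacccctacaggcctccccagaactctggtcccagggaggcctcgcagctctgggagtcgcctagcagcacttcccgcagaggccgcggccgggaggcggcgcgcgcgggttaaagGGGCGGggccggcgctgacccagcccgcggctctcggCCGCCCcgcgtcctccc
Avil and Coro2b hold CCAAT letters and no GGGCGG, and Flii holds GGGCGG on both strands and no CCAAT.

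RefSeq promoter windows were found for 165 members (239 windows) and for 18 of the 21 that fell (27 windows). The letters GGGCGG, known as the core of a GC box, stood on either strand of 61.5% of the members' windows, 66.7% of the windows of members that fell and 35.7% of all 32851 windows. CCAAT stood in 36.8%, 22.2% and 37.4%, and neither motif overlaps the other. The CArG box, the motif of serum response factor, which is known to control many actin genes, was matched in 2.09% of the members' windows (Cnn2, Lima1, Myo1e, Nebl and Vcl), in none of the 27 windows of members that fell and in 1.63% of all. The members passed a count threshold, whereas the 32851 windows were taken without one. Shares over genes past the same threshold were not computed, so the shares of members and of all windows are not like for like. These matches describe the letters and not binding.

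Genes for severing, capping and turnover of filaments gave 6 of the 21 falls, from 28 tested genes with a median log2 fold change of -0.20, where the median of all genes was 0.00. In this fit 2.5% of all genes fell, the share to set beside the count of each role here and below. Avil encodes advillin, a gelsolin relative (chromosome 10, 127000709 to 127020994, mm10). It stood at 34.5, 28.4, 33.8 and 33.8 CPM in vehicle replicates 1 to 4 and at 22.8, 22.3, 18.8 and 20.8 CPM in SC-57461A replicates 1 to 4. Every SC-57461A library was below every vehicle library. Avil fell by 0.63 on the log2 scale (SE 0.09, adjusted p = 0.00213, edgeR), with -0.61 in set A alone and -0.64 in set B alone. Without the set term its adjusted p was 0.0723. The gene overlaps Tsfm on the opposite strand, which had up to 1585 counts, and whether counting used strand is not given in the sources at hand, so reads of the pair may be shared.

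Coro2b, a coronin gene (chromosome 9, 62419492 to 62537044), stood at 67.8, 67.5, 69.7 and 82.6 CPM in vehicle replicates 1 to 4 and at 60.5, 53.7, 46.0 and 55.2 CPM with SC-57461A. The treatments did not overlap. It fell by 0.42 (SE 0.08, adjusted p = 0.0119, edgeR). Flii, whose protein joins a gelsolin-like part to leucine-rich repeats (chromosome 11, 60714123 to 60727263), stood at 208, 209, 282 and 322 CPM in vehicle and at 245, 169, 153 and 242 CPM with SC-57461A. Its treatments overlap, with set B higher in both, and within each set the SC-57461A values were lower. The fall was 0.34 (SE 0.07, adjusted p = 0.0138, edgeR). Flii overlaps Llgl1 on the opposite strand, with up to 3648 counts.

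Coro2a, a second coronin gene, went from 329 ± 34.0 to 274 ± 43.2 CPM (SD, n = 4 each) and fell by 0.27 (SE 0.07, adjusted p = 0.0444, edgeR). Ssh2, a slingshot phosphatase that activates cofilin, went from 145 ± 12.5 to 116 ± 21.1 CPM (SD, n = 4 each) and fell by 0.34 (SE 0.08, adjusted p = 0.0371, edgeR). A pseudogene inside it on the same strand, Gm12346, had up to 2425 counts. Scin, a calcium-dependent severing protein gene and a lower-level member chosen after its values were seen, went from 9.01 ± 1.03 to 6.59 ± 0.95 CPM without overlap (SD, n = 4 each, adjusted p = 0.0265, edgeR). Dstn, which encodes the depolymerising factor destrin, had the opposite order and did not pass the threshold. It stood at 46.3, 47.7, 49.1 and 45.5 CPM in vehicle and at 58.5, 50.4, 62.0 and 55.4 CPM with SC-57461A, a log2 difference of 0.26 (SE 0.08, adjusted p = 0.0686, edgeR).

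Among genes for crosslinking and bundling, 5 of 23 fell and the median was -0.20. Lsp1, lymphocyte-specific protein 1, is an actin bundler of leukocytes (chromosome 7, 142460809 to 142494867). It had 85.8, 94.97, 67.1 and 68.8 CPM in vehicle replicates 1 to 4 and 40.0, 59.5, 62.5 and 46.1 CPM with SC-57461A. The lowest vehicle library was above the highest SC-57461A library, and set A was the higher set in both treatments. Lsp1 fell by 0.61 (SE 0.07, adjusted p = 0.000463, edgeR), the smallest adjusted p of the members, with -0.56 in set A, and -0.66 in set B. Its adjusted p without the set term was 0.451.

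Palld encodes palladin, a crosslinker of stress fibres (chromosome 8, 61513246 to 61902669), and was chosen after its values were seen, since its 3.91 FPKM in vehicle is below the level of 5 required of genes named by rule. Vehicle replicates 1 to 4 had 33.1, 32.2, 31.8 and 50.3 CPM and SC-57461A replicates 1 to 4 had 25.6, 17.7, 14.2 and 20.7 CPM. No SC-57461A library reached the lowest vehicle library. The fall was 0.93 (SE 0.14, adjusted p = 0.00308, edgeR), with -1.03 in set A, and -0.83 in set B. Palladin is also made by smooth muscle and fibroblasts, whose 13 markers summed to 4.20 to 178 CPM of the library total in vehicle, highest in vehicle replicate 2, and to 3.23 to 28.1 CPM with SC-57461A. In set B 8 of the 13 markers were detected and Cnn1, Actg2, Col3a1, Dcn and Lum were at 0, with sums of 4.20 to 7.07 CPM in vehicle and 3.23 to 5.09 CPM with SC-57461A. Of those detected, Tagln had 127 and 255 counts in vehicle replicates 3 and 4 and 134 and 99 counts in SC-57461A replicates 1 and 4, Pdgfrb had 53 and 124 against 50 and 23, and Col1a1 had 30 and 71 against 29 and 22. Vehicle replicate 4, the library with the most counts in all, was the highest of set B for these 3 genes, as it was for Palld. Acta2, Myh11 and Pdgfra were also highest there, at 24, 6 and 16 counts. Des was highest in SC-57461A replicate 1, with 12 counts, and Col1a2 in vehicle replicate 3, with 8 counts. In set A the markers summed to 11.3 and 178 CPM in vehicle replicates 1 and 2, where Palld had 33.1 and 32.2 CPM. The part of these cells in the Palld result was not tested.

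Lasp1, which encodes a LIM and SH3 protein of focal adhesions, had 325, 303, 340.2 and 406 CPM in vehicle replicates 1 to 4 and 309.9, 272, 230.2 and 296 CPM with SC-57461A. SC-57461A replicate 1 lay among the vehicle values. It fell by 0.31 (SE 0.08, adjusted p = 0.0399, edgeR). A copy, Gm4875, is 95.7% identical over 22.4% of its transcript and had at most 107 counts. Sptan1, the alpha spectrin of the membrane skeleton, went from 285 ± 57.4 to 237 ± 53.3 CPM (SD, n = 4 each) and fell by 0.28 (SE 0.07, adjusted p = 0.0342, edgeR). Crocc, the rootletin gene of the centrosome, fell by 0.51 from 12.9 ± 1.01 to 9.03 ± 1.25 CPM without overlap (SD, n = 4 each, adjusted p = 0.0220, edgeR), and was chosen after its values were seen. In Cnn3, a calponin gene of low level, vehicle libraries had 1.78, 2.18, 0.837 and 1.47 CPM and SC-57461A libraries 2.58, 3.18, 2.69 and 2.72 CPM. All SC-57461A libraries of Cnn3 were higher, and the adjusted p was 0.0501 (edgeR).

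Genes that start or extend filaments gave 5 falls among 29 tested, and the median was -0.19. Daam1, a formin gene, stood at 48.9, 49.8, 58.9 and 62.1 CPM in vehicle replicates 1 to 4 and at 53.4, 37.3, 34.2 and 47.9 CPM with SC-57461A. It fell by 0.36 (SE 0.07, adjusted p = 0.0176, edgeR). Diaph1, the gene of the formin mDia1, had 197, 193, 248 and 299 CPM in vehicle and 245, 159, 138 and 216 CPM with SC-57461A. Both formin genes were higher in set B, and within each set their SC-57461A libraries were below the vehicle libraries. Diaph1 fell by 0.32 (SE 0.08, adjusted p = 0.0455, edgeR), with -0.39 in set A and -0.25 in set B.

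Vasp, which protects growing filament ends from capping, had 293, 333, 229.8 and 243 CPM in vehicle replicates 1 to 4 and 194, 279, 234 and 191 CPM with SC-57461A. Its level was higher in set A, and the SC-57461A libraries were lower within each set. The fall was 0.29 (SE 0.07, adjusted p = 0.0409, edgeR). Enah, the Ena relative of Vasp, fell by 0.32 (adjusted p = 0.0305, edgeR), and Dbnl, which encodes the drebrin-like adaptor HIP-55, fell by 0.23 from 266 ± 18.0 to 226 ± 13.1 CPM (SD, n = 4 each, adjusted p = 0.0484, edgeR). Both were picked with their values in view. The third Ena/VASP gene, Evl, stood at 4.31 CPM in vehicle and 2.76 CPM with SC-57461A and did not pass (adjusted p = 0.0851, edgeR). None of the 5 members in the list of Arp2/3 subunits passed, and neither did Actr3b, a member outside that list.

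Of 18 tested linkers to membranes and adhesions 1 fell, with a median of -0.13. It was Tln1, which encodes talin 1, the protein that activates integrins from inside the cell (chromosome 4, 43531519 to 43562691). Vehicle replicates 1 to 4 had 745, 731, 974 and 1239 CPM and SC-57461A replicates 1 to 4 had 923, 623, 474 and 822 CPM. Set B was higher in both treatments, and both SC-57461A libraries of set B were above both vehicle libraries of set A. Tln1 fell by 0.39 (SE 0.10, adjusted p = 0.0437, edgeR), with -0.42 in set A, -0.35 in set B, and it passed in 2 of 8 fits that left out 1 library. The gene overlaps Creb3 on the opposite strand, with up to 2679 counts. Vcl, the gene of vinculin, a partner of talin, was at 5.47 ± 0.76 CPM in vehicle and 5.59 ± 1.40 CPM with SC-57461A (SD, n = 4 each), a log2 difference of 0.01 (adjusted p = 0.975, edgeR). Vcl overlaps Ap3m1 on the opposite strand, with up to 7977 counts.

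Among the myosin genes 2 of 21 fell, and the median was -0.19. Myo16, an unconventional myosin (chromosome 8, 10272572 to 10634741), had 13.2, 13.2, 13.8 and 16.8 CPM in vehicle replicates 1 to 4 and 9.76, 8.30, 6.12 and 11.0 CPM with SC-57461A. The treatments did not overlap, and the fall was 0.71 (SE 0.13, adjusted p = 0.00876, edgeR). Myo1d, a membrane-bound myosin, fell by 0.54 from 18.0 ± 4.69 to 12.4 ± 2.47 CPM (SD, n = 4 each, adjusted p = 0.0118, edgeR). Both are low in FPKM and were picked with their values in view. Of 4 giant linker genes, Syne2, a nesprin of the nuclear envelope, also chosen after its values were seen, fell by 0.47 (adjusted p = 0.0206, edgeR), and Plec, Utrn and Dst did not pass.

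The 7 genes for monomer binding held no call in the set-adjusted fit and had a median of 0.04, with 3 below 0 and 4 above. Cotl1, of the cofilin homology family, was placed in this role by the list used here, and whether its product binds monomers was not checked. Cotl1 passed as lower with the length offset described below. Cap1 did not pass, although its SC-57461A libraries, at 850 to 896 CPM, all lay below its vehicle libraries, at 933 to 1037 CPM. Neither tropomyosin Tpm4 nor the troponin gene Tnni3 passed. The 72 tested genes of other or mixed roles, among them vesicle tethers, kelch proteins, pseudogenes and regulators for which actin is a minor partner, had 1 fall and a median of -0.03. It was Ppp1r18, which encodes phostensin, a phosphatase subunit that binds filament ends. Ppp1r18 had 376, 391, 331 and 357 CPM in vehicle replicates 1 to 4 and 283, 346, 315 and 279 CPM with SC-57461A (adjusted p = 0.0380, edgeR, chosen after its values were seen).

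**Figure D3:**
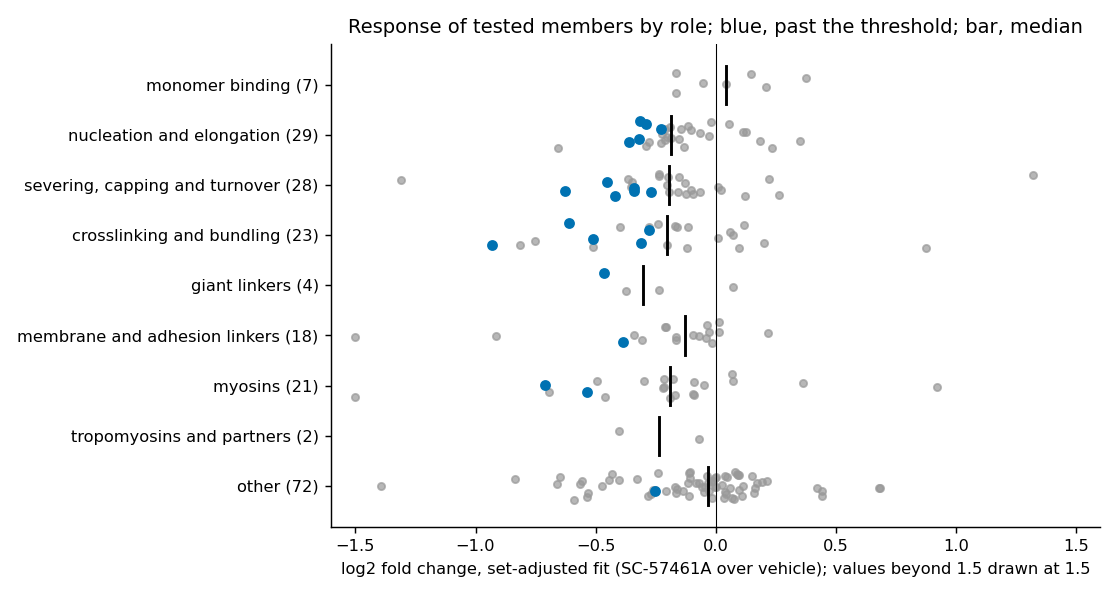
Set-adjusted log2 fold change of SC-57461A over vehicle for each of the 204 tested members, in rows by role with the number tested in brackets; blue points passed the threshold and black bars are medians, from -0.30 for giant linkers to 0.04 for monomer binding. All 21 blue points lie left of 0, and values beyond 1.5 are drawn at 1.5.

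The response was then compared between the sets. For 103 of the 204 members the estimate was below 0 in either set alone (50.5%, against 31.3% of all genes), and for 27 it was above 0 in both (13.2%, against 31.4%). All 21 members that fell were among the 103, which their choice by a fit to the same libraries favours. No member passed the test of the interaction between set and treatment (edgeR), where 0.00662% of all genes were higher in that term and none lower, and 12 members had an unadjusted p under 0.05 (5.88%, against 4.96% of all genes). DESeq2 called none either. Within set A alone 1 member, Palld, passed with a lower value (0.134% of all genes), and within set B alone 2 did, Lsp1 and Avil (0.107% of all genes). No member passed with a higher value in set A (0.49% of all genes) or in set B (0.574%). Each of these fits rests on 2 libraries against 2.

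**Figure D4:**
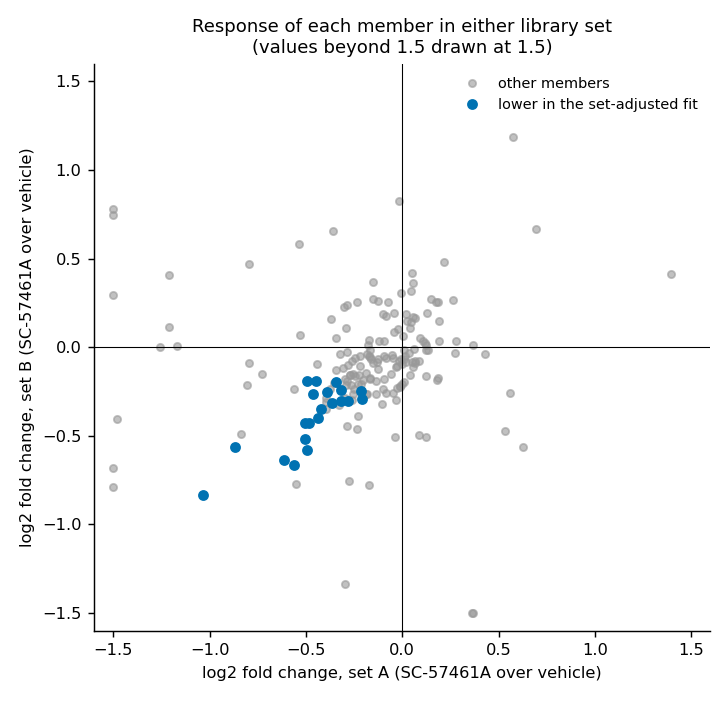
Log2 fold change of SC-57461A over vehicle in set A alone (horizontal) against set B alone (vertical) for each member with both values, blue for the 21 that fell in the set-adjusted fit. The blue points all lie in the lower left part, from -1.03 and -0.83 for Palld to values near -0.2 on either axis. The 21 were chosen by a fit to these same libraries, and values beyond 1.5 are drawn at 1.5.

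More members differed between the sets than between the treatments. Set B was above set A for 67 of 204 members (32.8%, against 24.3% of all genes) and below it for 46 (22.5%, against 26.3%), by the set term of the same fit (edgeR). Of the 21 members that fell, 14 were higher in set B and 3, Lsp1, Vasp and Ppp1r18, were higher in set A. The largest differences were those of genes at 0 in every set B library, which are members only through their counts in the 4 set A libraries, so this order was fixed by the count threshold and is a description. Myh14, a non-muscle myosin gene that is high in epithelium, had 71, 104, 0 and 0 counts in vehicle replicates 1 to 4 and 0, 114, 88 and 0 counts in SC-57461A replicates 1 to 4. Scnn1a, an epithelial sodium channel subunit gene, had 38, 90, 0 and 0 counts and 0, 105, 52 and 0 counts in the same order. Parva, which encodes the adhesion protein parvin alpha, had 66, 85, 0 and 0 counts and 0, 70, 49 and 0 counts.

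The smooth muscle myosin gene Myh11 had 44, 1341, 0 and 6 counts in vehicle replicates 1 to 4 and 0, 158, 113 and 2 counts with SC-57461A. In all, 9 members were under 10 counts in every set B library, and none was so in every set A library. These 9 are members only through their counts in the 4 set A libraries, so this count is a description. The share over all genes was not computed. The 12 epithelial markers summed to 17.9 to 30.1 CPM of the library total in set A vehicle libraries and to 52.9 to 64.2 CPM in set A SC-57461A libraries. In set B the order was the reverse, with 18.4 to 20.9 CPM in vehicle and 12.9 to 16.1 CPM with SC-57461A. There Krt8, Krt19, Krt20, Cdh1, Tff3, Fabp2 and Car1 were at 0. Myeloid markers, 12 in number, summed to 28.7 to 52.7 CPM in set A and 6.36 to 8.47 CPM in set B. By treatment they summed to 7.99 to 47.3 CPM in vehicle and 6.36 to 52.7 CPM with SC-57461A. Within set A these ranges overlapped, at 33.3 to 47.3 and 28.7 to 52.7 CPM. Within set B they did not, at 7.99 to 8.47 and 6.36 to 6.90 CPM. The part of these cell types in the set and treatment differences was not tested. In bulk RNA, fewer cells of a type and less RNA per cell cannot be told apart.

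In the other direction, Myh3, a skeletal muscle myosin gene, had 60, 38, 61 and 92 counts in vehicle and 54, 24, 12 and 74 counts with SC-57461A, 1.02 higher in set B on the log2 scale (adjusted p = 0.0362, edgeR). The transcript Gm15777 was 1.16 higher in set B (adjusted p = 0.0113, edgeR). The unnamed row ENSMUSG00000103888 had the largest estimate in this direction, 1.64, with 0 to 6745 counts per library, and did not pass (adjusted p = 0.105, edgeR).

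Members on either side of the count threshold are given without a test. Just inside it, Lmod1, a smooth muscle leiomodin gene, had 10, 76, 0 and 0 counts in vehicle and 0, 14, 15 and 0 with SC-57461A, and Espnl had 0, 0, 10 and 17 counts and 0, 0, 12 and 13 counts. Just outside it, the smooth muscle calponin gene Cnn1 had 0, 970, 0 and 0 counts and 0, 65, 90 and 0 counts, and the spindle-positioning gene Misp had 0, 36, 0 and 0 counts and 0, 62, 30 and 0 counts. The count filter of the test left out 7 members, Ceacam2, Espnl, Fscn2, Homer2, Lmod1, Phactr1 and Tmod4. Fscn2, a fascin gene best known from the retina, had 12, 17, 22 and 19 counts in vehicle and 0, 8, 4 and 0 counts with SC-57461A. It was the 1 member under 10 counts in every SC-57461A library and is a member only through its vehicle counts. The share over all genes was not computed.

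Transcript length was checked because actin-binding proteins are often large. The longest transcript of a tested member had a median of 4.42 kb, against 3.04 kb for all genes tested and 5.35 kb for the 21 members that fell. In the set-adjusted fit the median log2 fold change of all genes went from 0.09 under 2 kb to -0.11 over 10 kb, and that of the members went from -0.05 to -0.28 over the same classes. Members were thus below all genes in each of the 5 length classes. No member under 2 kb passed, where 0.862% of all genes of that class fell. Between 2 and 4 kb 8 of 60 members fell (13.3%, against 2.4%), between 4 and 6 kb 5 of 55 (9.09%, against 3.82%), between 6 and 10 kb 6 of 48 (12.5%, against 4.52%) and over 10 kb 2 of 12 (16.7%, against 5.61%). The slope was steeper in set A alone, from 0.14 to -0.22 over all genes, than in set B alone, from 0.04 to 0.01; this contrast was not tested.

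With an offset that removed each library's trend with transcript length, the medians of all genes lay between -0.01 and 0.02 in the 5 classes and those of the members between -0.17 and -0.10. In that fit 23 members fell (11.3%, against 3.33% of all genes) and 2 rose (0.98%, against 3.45%). All 21 members named above were among the 23. The other two were Neb, a giant filament-binding protein gene (adjusted p = 0.0350, edgeR), and Cotl1 (adjusted p = 0.0440, edgeR), and the members that rose were Cnn3 (adjusted p = 0.0478, edgeR) and Spire1, a filament nucleator gene (adjusted p = 0.0407, edgeR). Without the set term the offset gave 1 lower member, Avil (adjusted p = 0.0412, edgeR), where 0.0861% of all genes were lower.

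**Figure D5:**
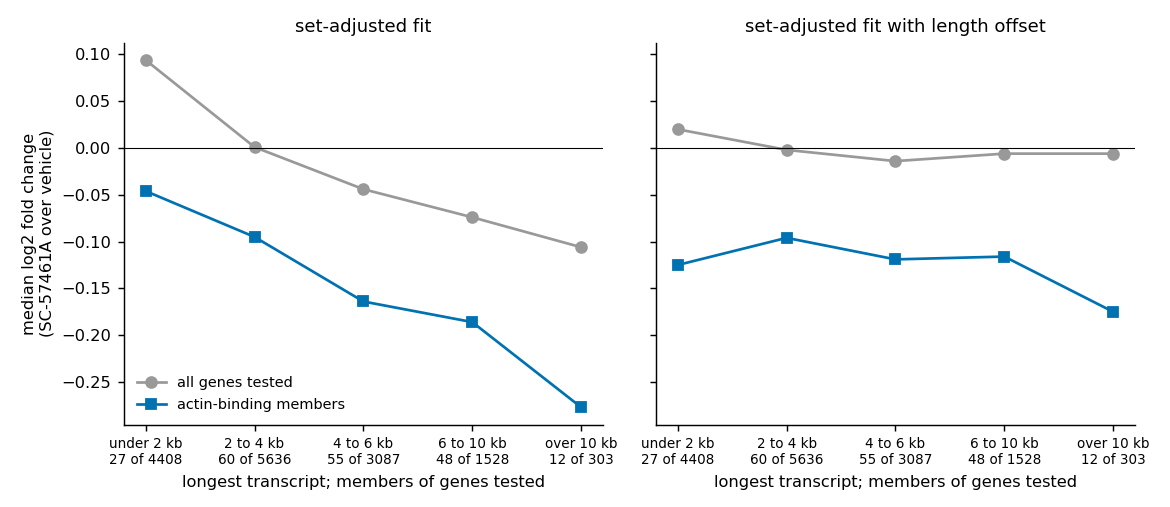
Median log2 fold change of SC-57461A over vehicle by class of longest transcript, grey for all genes tested and blue for the members, without a length offset (left) and with one (right), with the number of members and of genes under each class. Without the offset both lines go down with length, the members from -0.05 to -0.28, and with it the grey line stays between -0.01 and 0.02 and the blue line between -0.17 and -0.10.

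Other genes of the pathway were followed in lists of actins, Arp2/3 subunits, filament activators and transcriptional regulators. None of their genes passed the pooled fit (edgeR), and DESeq2 called none. With the set term, of 11 tested actins and non-muscle myosin light chains 2 fell, where 2.5% of all genes fell. Both were the cytoplasmic actins themselves. Actb went from 9871 ± 1832 to 8447 ± 1470 CPM (SD, n = 4 each) and fell by 0.22 (SE 0.05, adjusted p = 0.0346, edgeR). Actg1 went from 5884 ± 707 to 4998 ± 455 CPM (SD, n = 4 each) and fell by 0.23 (SE 0.06, adjusted p = 0.0417, edgeR). These are multigene families with pseudogenes, so their counts are uncertain. No gene passed among the 9 Arp2/3 subunits, with a median of -0.03, the 20 tested WASP and WAVE activators, with a median of -0.07, or the 8 tested regulators of the SRF and MRTF factors, with a median of -0.05 (set-adjusted edgeR fit).

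Actin binders whose term cells could not be read, or that carry related terms, were given the same test. Flna, the crosslinker filamin A, fell by 0.35 from 1563 ± 529.6 to 1233 ± 439.6 CPM (SD, n = 4 each, SE 0.07, adjusted p = 0.0152, edgeR). Myh9, the non-muscle myosin heavy chain, was at 1464 ± 305 CPM in vehicle and 1153 ± 253 CPM with SC-57461A (SD, n = 4 each), and its adjusted p was 0.0536 without and 0.0348 with the length offset (edgeR). Pfn1, the monomer binder profilin 1, was at 1541 ± 487 and 1398 ± 457 CPM, and Cfl1, the severing protein cofilin 1, at 1938 ± 412 and 2039 ± 625 CPM (SD, n = 4 each), with adjusted p-values of 0.164 and 0.748 (edgeR). Coro1a, Lcp1, Msn, Ezr and Macf1, which encode a coronin, a bundler, a pair of membrane linkers and a giant linker, had log2 differences of -0.07, -0.04, -0.16, -0.18 and -0.32 in that order and did not pass either, their adjusted p-values being 0.117 to 0.765 (edgeR).

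For comparison with neighbouring terms, chosen after values were seen, genes with the term actin filament binding that are not members gave 3 lower and no higher calls among 30 tested, with a median of -0.08. The term actin cytoskeleton without the members gave 5 lower and 1 higher among 72, with a median of 0.02. Microtubule binding without the members gave 2 lower and 20 higher among 199, with a median of 0.07. The term microtubule without the members gave 9 lower and 5 higher among 223, with a median of -0.06 (set-adjusted edgeR fit throughout). In that fit 2.5% of all genes were lower and 2.83% higher.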

How the data were processed

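The data are RNA-seq profiles of 8 total RNA libraries, 4 per treatment. Per the submitters' processing notes, cutadapt 4.7 and FastQC were used and the build was mm10; no aligner, counter, strand setting or annotation is given in the sources at hand. The deposited table holds raw counts and FPKM for each gene in each library, per the file headers, and 0 columns were left unmatched to a sample. The authors computed FPKM, which divides by gene length and library total. Symbols for 24998 of 25367 genes, transcript lengths and biotypes came from GENCODE release M21.

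The members, the lists, the library sets and the tests were chosen with earlier results of these data known. Counts were filtered with filterByExpr (15095 genes), scaled with TMM and tested with the two-sided edgeR 4.0.16 quasi-likelihood test in R 4.3.3 (Benjamini-Hochberg over all genes, adjusted p under 0.05), without and with library set as a term. Sets were split at the largest gap in summed FPKM. SE is the log2 fold change divided by the root of F. The length offset was a spline (5 degrees of freedom) of each library's log2 CPM deviation on longest transcript. Scripts were tested on simulated data. Total counts were 47376196 to 71155654 per library; precision is limited by the spread between libraries. In the 28 library pairs the chi-square of the counts divided by its degrees of freedom was 16.7 to 583, so none was a repeat deposit. Genes named by rule were the 12 largest set-adjusted falls with at least 5 FPKM in the higher group, the 10 members highest in vehicle FPKM, 3 in each direction for the set difference, 12 chosen genes, and up to 2 called genes per pathway list and direction. Other named genes were picked with their values in view. Results of 1 pathway list, counted in the list totals of the closing section, are not reported here.

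Alternatives were RLE scaling, no count filter, DESeq2 1.42.0, limma 3.58.1 on log2(FPKM + 1) or with a pseudocount of 0.1 or no FPKM filter, the length offset, a replicate block, each set alone, and leaving out each library. Copies were sought with BLAST 2.17.0 (at least 95% identity). Promoters are from RefSeq. Python 3.11.15 with pandas 2.3.3, numpy 2.4.6 and matplotlib 3.10.9 was used.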

Additional observations from a re-analysis of the deposited data

Results flagged for a closer look

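Single libraries that stood apart from the others of their treatment were looked for in 64 groups of 4 CPM values. These were values of genes named by rule, in either treatment, and 4 were found, where chance gives about 1 in 20. Vehicle replicate 2 had the lowest vehicle level of Avil, 28.4 CPM, while the others were at 33.8 to 34.5 CPM. Vehicle replicate 4 had the highest vehicle level of Coro2b, 82.55 CPM, while the others were at 67.5 to 69.7 CPM. SC-57461A replicate 2 had the lowest level of Tpm4, 498 CPM, while the others were at 577 to 589 CPM. SC-57461A replicate 3 had the lowest level of Cnn2, 455 CPM, while the others were at 474 to 476 CPM. Palld and Myo16, picked with their values in view, were not among these groups. Vehicle replicate 4 had their highest vehicle levels. Palld had 50.3 CPM there and 31.8 to 33.1 CPM in the others, and Myo16 had 16.8 CPM there and 13.2 to 13.8 CPM in the others. Avil passed the set-adjusted threshold in every fit that left out 1 library, and Coro2b passed in 7 of 8 (edgeR).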

How the results depend on the processing

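Without the set term the count of members called was 0 in both directions, and it was 0 with RLE scaling, no count filter, limma on FPKM and each library left out. It was 3 lower with DESeq2, 1 lower with the length offset, 1 lower in set A alone and 2 lower in set B alone. With the set term, 21 lower members became 34 with DESeq2, 3 with limma on log2(FPKM + 1) without an FPKM filter, and 4 to 25 with 1 library left out. The other alternatives gave 15 to 27. Members called higher, 0 in that fit, were 1 with RLE scaling, 2 with DESeq2, 2 with the length offset and 0 to 1 with 1 library left out. The pathway lists had 5 lower genes, 9 with DESeq2 and 8 with the length offset. The 113 members that differed between the sets were 114 with the length offset. The cause of these changes was not tested.

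Same-numbered libraries deviated from their treatment means with correlations of -0.69, 0.71, -0.62 and 0.71 for replicates 1 to 4. Replicates 2 and 4, with positive values, have both libraries in the same set, and replicates 1 and 3 do not. Since the set was not removed first, these values cannot show whether the numbers pair the libraries. With the number as a replicate block, the pooled fit called 0 members in either direction and the set-adjusted fit 27 lower and 1 higher.

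Of the single-gene alternatives, 386 without the set term kept direction and side of the threshold, 4 came to pass it and 22 changed sign; with the set term the counts were 276, 10 and 9, and 71 no longer passed. Those that changed sign were genes near 0 that did not pass. Cfl1 was -0.054 in set B alone, Coro1a 0.048 in set A alone, Lcp1 0.004 in set B alone and Vcl -0.23 in set A alone, -0.002 with limma without an FPKM filter in either fit and -0.006 without the count filter. With 1 library left out, log2 differences without the set term ran from -0.30 to 0.01 for Pfn1, -0.13 to 0.20 for Cfl1, -0.34 to 0.15 for Tmsb4x, -0.127 to 0.072 for Lcp1 and -0.059 to 0.19 for Vcl. With the set term they ran from -0.039 to 0.098 for Cfl1, -0.155 to 0.018 for Tmsb4x and -0.12 to 0.18 for Vcl. Leaving out a library leaves 1 library in a cell of set and treatment, and the spread is then taken from the others.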
